A study of Macaca mulatta with 24 samples.

Results

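The nuclear genes for the subunits of respiratory complexes II to V were examined in RNA-Seq of the nucleus accumbens core (NAcc core) of 24 rhesus macaques. Genes were taken by symbol from the deposited table of 17208 genes, namely SDHA to SDHD, CYC1 and all symbols that begin with UQCR, with COX and a digit from 4 to 8, or with ATP5. This gave 47 genes, 4 of complex II, 10 of complex III, 16 of complex IV and 17 of complex V. Of these, 43 encode subunits. The other 4 are UQCRHL, a retrocopy of UQCRH, COX7A2L, a factor that helps join complexes III and IV, and ATP5S and ATP5SL, which are not part of the enzyme. Values were taken as TPM, the unit that the study names, in which each animal adds up to the same total. TPM is a level corrected for transcript length, but the lengths used are not given in the sources. The filter used for testing, an average over all animals of 1 TPM or more, was passed by 44 of the 47 genes, and 40 of these encode subunits.

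The animals were unrelated adult males, 8 controls, 8 low or binge drinkers (labelled LD, here LD*), 4 heavy drinkers (HD) and 4 very heavy drinkers (VHD). The last 2 groups together are called HD*. All animals worked an operant panel for fluids and food. Drinkers had 4 months of induction and then 12 months of access, for 22 h each day, to 4% ethanol or water, while controls had water and a 10% maltose dextrin solution. Mean daily intake, in g/kg, was 1.58 ± 0.53 for LD*, 2.92 ± 0.16 for HD and 3.37 ± 0.29 for VHD animals (SD, n = 8, 4 and 4), and VHD 3 and HD 2 both had 3.09 g/kg. HD and VHD animals came from cohorts 5 and 7a, with 2 of each in both cohorts. Controls came from cohorts 5 (3 animals), 7a (2) and 7b (3), and LD* animals from cohorts 4 (2), 7a (3) and 7b (3). Per the methods of the study, ethanol stayed on offer until shortly before necropsy, and little or none was found in blood at that point.

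Complex II oxidises succinate and passes the electrons to ubiquinone, complex III carries them on to cytochrome c, complex IV hands them to oxygen, and complex V, the ATP synthase, uses the resulting proton gradient to make ATP. Around a few central proteins that hold the flavin, iron-sulfur, haem or nucleotide sites, complexes III to V carry many small supernumerary or stalk subunits. Neurons draw much of their ATP from this pathway, and most neurons of the striatum are medium spiny neurons, with glia around them. For subunits encoded by mitochondrial DNA 18 symbols were searched and 0 were found in the deposited values, so these subunits were not analysed here.

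Each sample was a small dissected block, and for every result below fewer cells of a type and less RNA per cell cannot be told apart. The tissue carried its defining markers, and all 10 markers of medium spiny neurons were measured, PPP1R1B (DARPP-32) at 303.5 TPM or more in every animal. Control 6 stood apart, with 303.5 TPM of PPP1R1B and 8.14 TPM of DRD1 and the lowest medium spiny neuron marker score of any animal (−3.27 on the log2 scale, all other animals at −1.08 or above). Its oligodendrocyte marker score of 1.62 was the highest. Group values of the complexes without Control 6 differed from those with it by less than the spread between animals. Read depth cannot be recovered from these values, so counting error is not given. Samples are single animals and each was sequenced once.

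The 47 genes together held 2.68% ± 0.42 of all TPM (SD, n = 24), and 33 of them were among the 1000 most abundant genes. Complex IV held the highest levels. COX8A, the general form of subunit 8, averaged 2347 TPM and COX4I1, the general form of subunit 4, 2083 TPM. In complex V the most abundant were ATP5E, the epsilon subunit of the central stalk, with 1232 TPM, and ATP5A1, the alpha subunit of the catalytic head, with 1150 TPM. In complex III they were UQCRH, the hinge protein, with 566 TPM and CYC1, cytochrome c1, with 525 TPM. Complex II was lowest, with 351 TPM for the iron-sulfur protein SDHB, 234 TPM for the flavoprotein SDHA, and 31.5 and 23.2 TPM for the membrane anchors SDHD and SDHC. Only reads that aligned to a single place were counted by the authors, so genes with near-identical copies elsewhere in the genome can be under-counted. COX7C was listed at 7.21 TPM, UQCRHL at 12.2 TPM and UQCRB at 73.5 TPM, and their levels are uncertain for this reason.

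**Figure D1:**
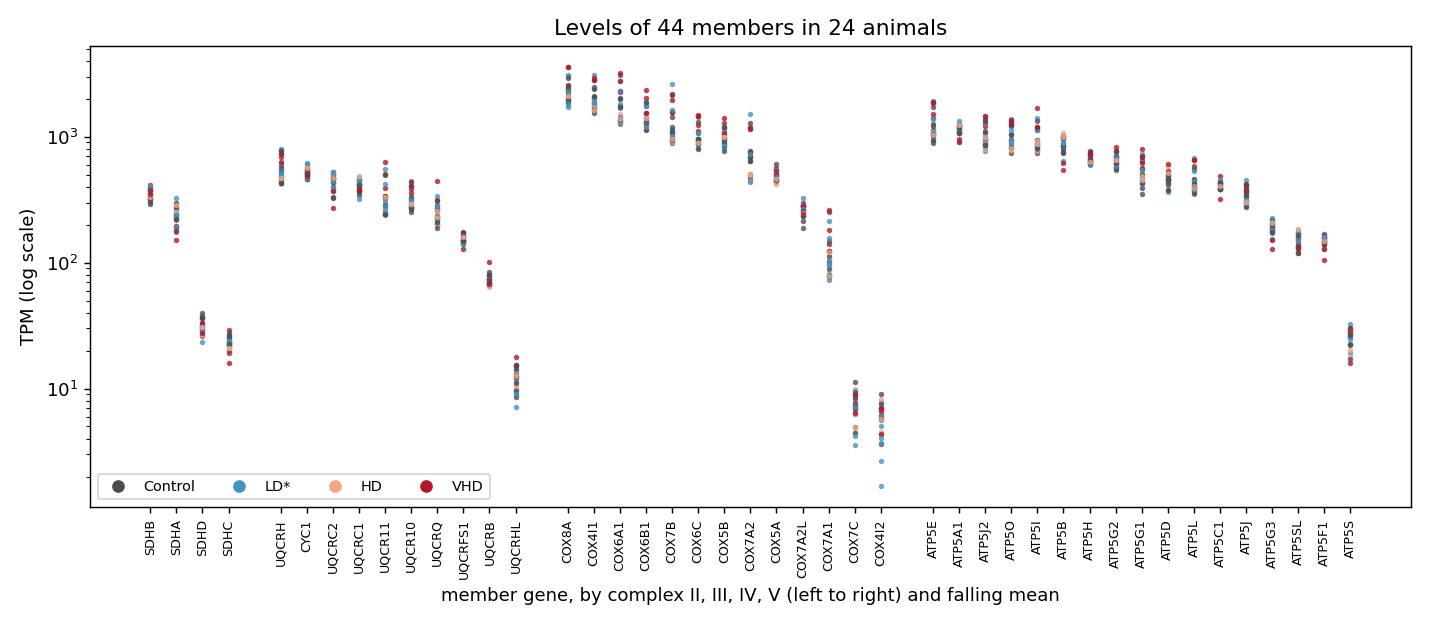
TPM on a log scale (y axis) of the 44 members that passed the filter of 1 TPM (x axis, by complex and falling mean), 1 point for each of 24 animals, coloured by group. Complex IV genes reach the highest levels, up to COX8A at a mean of 2347 TPM, while COX4I2 and COX7C lie under 12 TPM in every animal.

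Several subunits exist in tissue forms encoded by separate genes, and in the NAcc core the general form was the abundant one. COX4I2, the form of subunit 4 known from lung, averaged 5.67 TPM against 2083 TPM for COX4I1. COX6A1, the liver form of subunit 6A, averaged 1864 TPM, and COX6A2, the heart and muscle form, 0.162 TPM. For subunit 6B, COX6B1 averaged 1469 TPM and the testis form COX6B2 0.0253 TPM, and for subunit 7B, COX7B averaged 1301 TPM and the testis form COX7B2 0.0931 TPM. In subunit 7A the heart and muscle form was also present, COX7A1 averaging 124 TPM beside 734 TPM for the liver form COX7A2. COX7A2L averaged 261 TPM. The same c subunit of the rotor ring is encoded by 3 genes, and ATP5G2 averaged 656 TPM, ATP5G1 529.9 TPM and ATP5G3 191 TPM.

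The level of a whole complex in an animal was summarised as a score, the mean over its subunits of log2(TPM + 1) after subtracting each gene's mean over the 24 animals. Scores were described without a test. Scores of complexes III, IV and V went together over the 24 animals, with a Pearson correlation of 0.98 between III and V (Spearman 0.97), 0.90 between IV and V (Spearman 0.88) and 0.86 between III and IV (Spearman 0.83). The score of complex II ran at −0.30, −0.40 and −0.28 to those of III, IV and V, but these correlations changed sign, to 0.80, 0.81 and 0.82, after each animal was rescaled with TMM (trimmed mean of M-values). All of these points share the animal's library and its scaling.

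Within complexes the subunits did not all follow each other in the values as deposited. Correlations of single genes were not computed after TMM rescaling, so the part of scaling in them was not tested. In complex IV the correlation of a gene with the mean of the other subunits had a median of 0.90 over 13 genes, from −0.02 for COX4I2 to 0.95 for COX7A1. In complex V the median was 0.78 over 17 genes, with the highest value, 0.96, for ATP5G1, and the lowest, −0.74, for ATP5B, the catalytic beta subunit. ATP5A1 (−0.65), ATP5G3 (−0.69), ATP5F1 (−0.49) and ATP5SL (−0.55) also ran opposite to the remaining subunits of complex V. In complex III the small subunit UQCR10 had 0.86, while the core proteins UQCRC2 and UQCRC1 had −0.62 and −0.38. In complex II values lay between −0.50 for SDHB and 0.24 for SDHC. The heat map of members by animal shows small subunits of complexes III to V high together in the same few animals, with ATP5B and SDHA low in most of them.

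**Figure D2:**
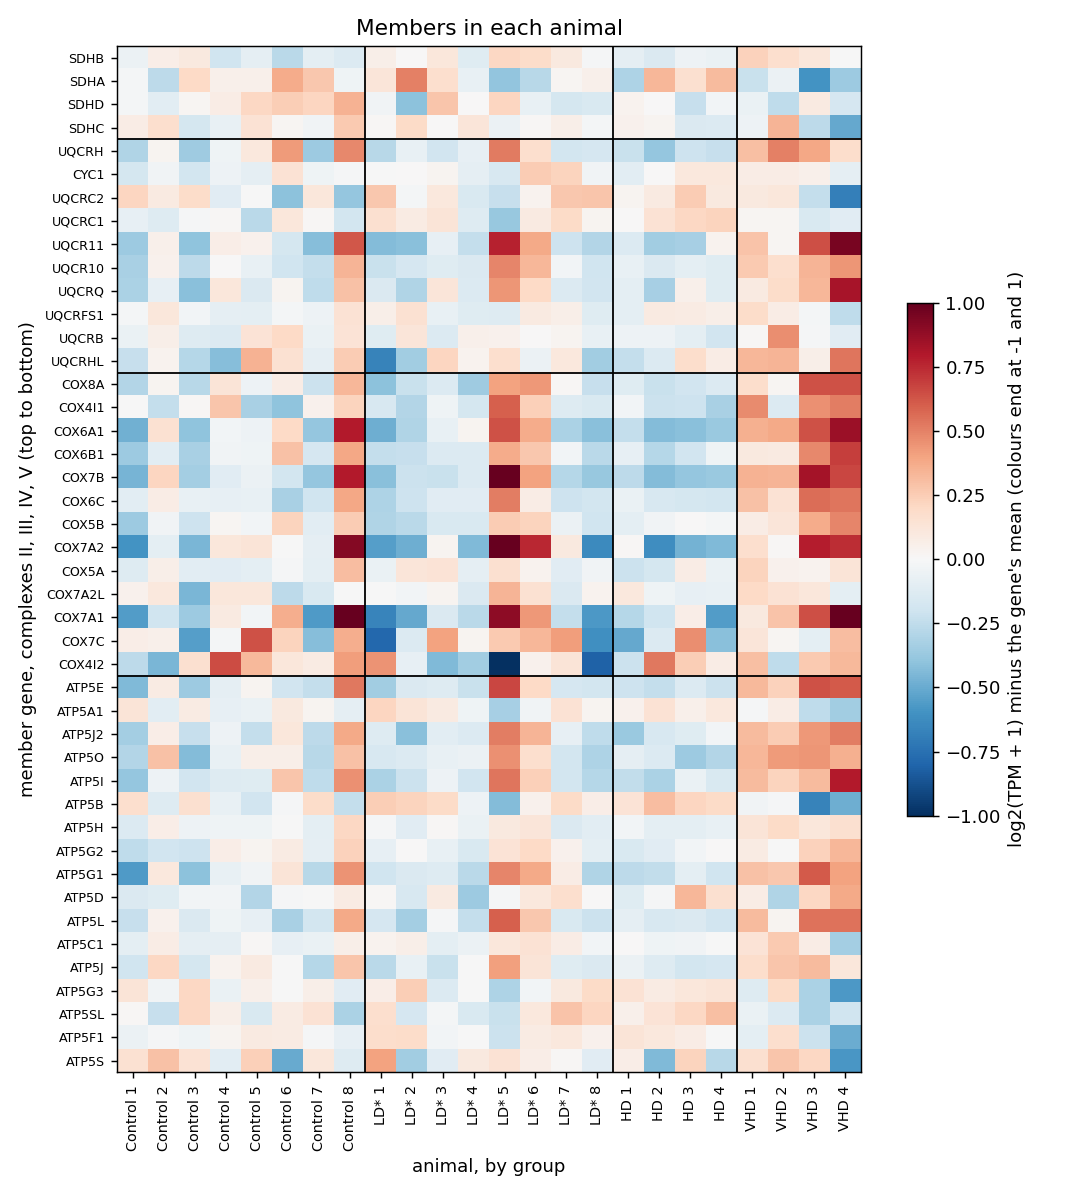
Each cell is log2(TPM + 1) of 1 gene (rows, by complex) in 1 animal (columns, by group) minus the gene's mean over 24 animals, red above and blue below it, with colours ending at −1 and 1. Control 8, LD* 5, LD* 6 and the VHD animals are red for most of the small subunits of complexes III to V, and LD* 5, VHD 3 and VHD 4 are blue for ATP5B and SDHA.

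HD* animals were compared with controls to ask whether expression differed after long-term drinking. Differences were tested with limma on log2(TPM + 1) over the 13637 genes that passed the filter, with Benjamini-Hochberg adjustment over all of them and a threshold of 0.05. Between HD* animals and controls 0 of the 44 members passed, as did 0 of all genes (0%). The study, with DESeq2 on read counts, reported many genes under a false discovery rate of 0.05 for this contrast. The outcome over all genes thus differs from the study's, and the reason was not tested. An unadjusted p under 0.05 was found for 775 genes (5.68%) and 1 member, SDHD. SDHD measured from 28.9 to 40.0 TPM in controls (median 34.6) and from 26.1 to 33.2 TPM in HD* animals (median 30.1), and the groups overlapped. Its log2 difference was −0.20 (SE 0.095, adjusted p = 0.706). After TMM rescaling it was −0.078 (adjusted p = 0.937), and there 2 members were higher and 0 lower at an unadjusted p under 0.05. The next members by p were ATP5D, the delta subunit of the central stalk, with 0.16 (SE 0.098), and UQCRQ, a small subunit of complex III, with 0.21 (SE 0.14), both at an adjusted p of 0.706.

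The log2 difference between HD* animals and controls was above 0 for 34 of the 44 members, with a median of 0.091 and a range from −0.20 to 0.21. Over all genes the median was −0.12. After TMM rescaling the median of all genes was −0.0066 and that of the members 0.22, with 41 members above 0. As deposited, 3 of 4 genes in complex II were below 0, as were 10608 of all 13637 genes. Above 0 were 9 of 10 in complex III, 12 of 13 in complex IV and 12 of 17 in complex V. After TMM rescaling 7040 of all 13629 genes were below 0. The 12 subunits listed as central (SDHA, SDHB, UQCRC1, UQCRC2, UQCRFS1, CYC1, COX4I1, COX5A, COX5B, ATP5A1, ATP5B and ATP5C1) had a median of 0.035. The 95% intervals of the 44 differences reached from −0.50 for COX7A2 to 0.70 for COX7A1. In the same contrast all 10 medium spiny neuron markers were above 0 (median 0.44) and all 8 oligodendrocyte markers below 0 (median −0.37). Without Control 6, left out after seeing the data, the difference in score between HD* animals and controls went from 0.45 to 0.023 for the medium spiny neuron markers and from −0.34 to −0.15 for the oligodendrocyte markers. Within cohorts it was −0.35 in cohort 5 and 0.41 in cohort 7a for the former, and 0.18 and −0.41 for the latter. The part of these markers in the members' values was not tested.

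LD* animals differed from controls in 0 of 44 members and 0 of all genes (0%). Without adjustment, 387 genes (2.84%) and 1 member, COX4I2, had a p under 0.05. COX4I2 measured from 3.66 to 9.05 TPM in controls (median 6.05) and from 1.69 to 7.76 TPM in LD* animals (median 4.55), with a log2 difference of −0.42 (SE 0.20, adjusted p = 1.00) on a scale that understates changes of such low genes. SDHB had a log2 difference of 0.15 (SE 0.077) and SDHD −0.17 (SE 0.095), both at an adjusted p of 1.00. The members' median was 0.0082 and that of all genes −0.025. HD* and LD* animals likewise differed in 0 members and 0 of all genes (0%), with 147 genes (1.08%) at an unadjusted p under 0.05. The only member among these was again COX4I2, 0.45 higher in HD* animals on the log2 scale (SE 0.20, adjusted p = 0.937), with 4.38 to 8.23 TPM there (median 6.64). UQCRHL had 0.25 (SE 0.14) and COX5B, subunit 5B of complex IV, 0.20 (SE 0.11), both at an adjusted p of 0.937. The 3 group contrasts share animals and are not independent of each other.

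Of the central subunits 0 passed in any of these 3 contrasts. CYC1 averaged 505 ± 36.5 TPM in the controls, 535 ± 54.4 TPM among LD* and 534 ± 30.7 TPM among HD* animals (SD, n = 8 each). The Rieske protein UQCRFS1 averaged 154 ± 9.72, 153 ± 12.0 and 156 ± 14.3 TPM. The central stalk subunit ATP5C1 averaged 398 ± 19.7, 417 ± 24.3 and 412 ± 47.7 TPM, and COX5A 482 ± 53.9, 494 ± 37.7 and 491 ± 50.2 TPM. SDHA averaged 245 ± 33.8, 236 ± 46.8 and 221 ± 51.6 TPM.

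Scores showed the same overlap of groups. For complex IV the score averaged −0.015 ± 0.26 in the controls, −0.067 ± 0.29 among LD* and 0.082 ± 0.32 among HD* animals (SD, n = 8 each). The difference between HD* animals and controls was 0.098 over all cohorts, 0.18 in cohort 5 and 0.022 in cohort 7a. In cohort 7a this difference was 0.39 without Control 8 and −0.35 without Control 7, so there it rested on single controls. For complex III the difference was 0.095, with 0.14 in cohort 5 and 0.056 in cohort 7a, and for complex V 0.084, with 0.14 and 0.019. Complex II lay 0.10 lower in HD* animals, with −0.00035 in cohort 5 and −0.22 in cohort 7a, and 0.024 higher after TMM rescaling. LD* animals and controls differed by at most 0.051 in any of the 4 scores over all cohorts. Within cohorts that difference was −0.20 (cohort 7a) and 0.0060 (7b) for complex IV, and −0.12 and −0.0061 for complex II.

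**Figure D3:**
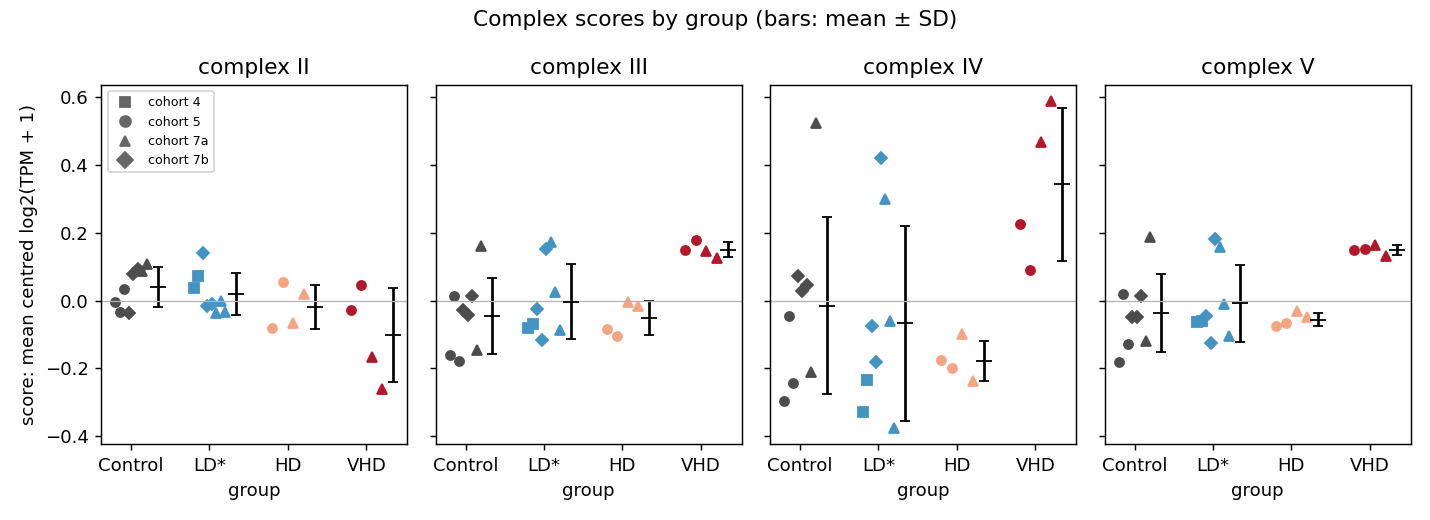
Score of each complex (mean centred log2(TPM + 1), y axis) by group, 1 symbol for each animal with its shape giving the cohort, and bars for mean ± SD. VHD animals lie above HD animals for complexes III, IV and V, and Control 8, LD* 5 and LD* 6 reach the VHD range in all 3.

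VHD and HD animals, 4 each, were also compared. In a model of these 8 animals 15 of the 44 members (34.1%) were higher in VHD animals at an adjusted p under 0.05, and 0 were lower. Over all 13637 genes 441 (3.23%) were higher and 1556 (11.4%) lower. The 15 members were COX6A1, COX6C, COX7A1, COX7A2, COX7B and COX8A of complex IV, UQCR10, UQCR11 and UQCRH of complex III, and ATP5E, ATP5G1, ATP5I, ATP5J2, ATP5L and ATP5O of complex V. By role they are supernumerary, hinge, stalk, rotor or membrane subunits. Of the 12 subunits listed as central 0 passed, and in complex II 0 of 4. ATP5B and COX4I1 of the central list narrowly missed (limma, adjusted p = 0.0513 and 0.0559). That list is not a clean division by role, since COX4I1, COX5A and COX5B also lie outside the catalytic core of complex IV.

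This count depended on the model. In a model of all 24 animals in 4 groups, with the spread shared by all groups, 0 members and 0 genes passed, the smallest adjusted p of the 15 being 0.0555 (COX7B among others), although 26 members (59.1%) had an unadjusted p under 0.05, as did 33.8% of all genes. The differences themselves were the same in that model, such as 0.91 for COX7B, and the spread changed. With the score of 8 general neuron markers as a covariate, an alternative chosen after seeing the data, 0 members and 0.0147% of genes passed. An unadjusted p under 0.05 was found for 11 members (25.0%) and 21.8% of all genes. The score ran from −0.89 to 0.041 in VHD and from 0.17 to 0.43 in HD animals, without overlap. Group and covariate can therefore hardly be separated in these animals. That covariate changed the differences themselves, which went from 0.91 to 0.52 for COX7B, from 0.80 to 0.12 for COX7A1, from 0.81 to 0.078 for COX7A2, from 0.50 to 0.082 for ATP5L and from 0.54 to −0.0036 for COX8A, while that of UQCRH went from 0.61 to 0.78. Leaving out 1 animal gave 4 members (9.09%) without VHD 3 and 5 (11.4%) without HD 3, against 3.49% and 4.45% of all genes. It gave 6 (13.6%) without HD 2, 7 (15.9%) without HD 4 and 8 (18.2%) without HD 1, 7 of these 8 higher. Of all genes 4.99%, 5.3% and 8.02% then passed. Without VHD 2 it gave 23 members (52.3%), 19 of them higher, and 34.1% of all genes, so the count moved with that of all genes. TMM rescaling gave 10 members (22.7%), all higher, against 8.60% of all genes higher and 10.4% lower, so that 45.3% in place of 22.1% of all called genes were higher. Weighting each animal by its own spread gave 31 members (70.5%), 23 of them higher (52.3%), but this setting also called 55.8% of all genes, 13.3% as higher.

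COX7B, a small subunit of complex IV, had the smallest p. It measured 1026, 912, 940.4 and 953 TPM in the 4 HD animals and 1564, 1559, 2192 and 1954 TPM in the 4 VHD animals. All VHD animals were above all HD animals, and the log2 difference was 0.91 (SE 0.14, limma, adjusted p = 0.00505). Over the alternatives run its adjusted p ranged from 1.19e-05 with array weights to 0.111 with the neuron marker score as a covariate. Control 8 (2133 TPM) and LD* 5 (2605 TPM) lay within or above the VHD range.

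COX6A1 measured 1511, 1316, 1331 and 1374 TPM in HD and 2277, 2320, 2768 and 3216 TPM in VHD animals, again without overlap (log2 difference 0.92, SE 0.15, adjusted p = 0.00505). ATP5O, the subunit that ties the peripheral stalk to the catalytic head, measured 937, 909.5, 777 and 814 TPM in HD and 1260, 1339, 1355 and 1278 TPM in VHD animals (0.61, SE 0.12, adjusted p = 0.0105). UQCRH measured 473, 422, 478 and 472 TPM in HD and 684, 785, 725 and 626 TPM in VHD animals (0.61, SE 0.12, adjusted p = 0.0105). The last 2 animals of each group belong to cohort 7a and the others to cohort 5, and in both cohorts the VHD animals were the higher ones.

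Among the other members that passed, log2 differences ran from 0.41 for UQCR10 to 0.81 for COX7A2. COX7A1, the heart and muscle form, had 0.80 (SE 0.22, adjusted p = 0.0327) with 77.9 to 121 TPM in HD and 123 to 262 TPM in VHD animals. The c subunit gene ATP5G1 had 0.59 (SE 0.12, adjusted p = 0.0120), whereas ATP5G2 had 0.23 (SE 0.12, adjusted p = 0.214) and ATP5G3 −0.32 (SE 0.16, adjusted p = 0.172). The difference between these 3 genes was not tested. Of the 15 members, 14 had every VHD animal above every HD animal. Counted over all members this held for 20 of 44 (45.5%), against 5.39% of all genes, and the reverse held for 2 members, ATP5B and ATP5SL, against 17.9% of all genes.

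**Figure D4:**
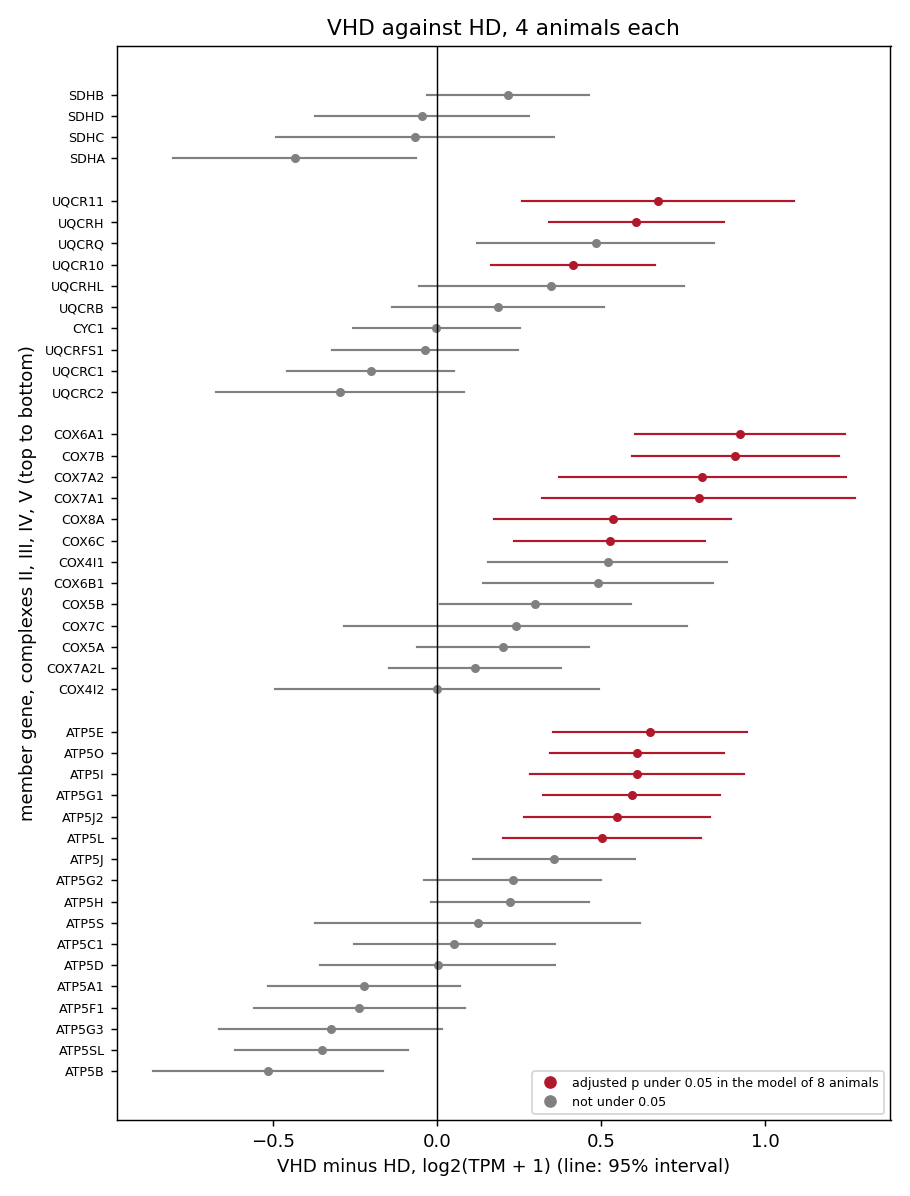
Difference between VHD and HD animals in log2(TPM + 1) (x axis, point) with its 95% interval (line) for 44 genes by complex, red where the adjusted p was under 0.05 in the model of 8 animals. All 13 points of complex IV are at or above 0, while the points of SDHA, UQCRC2 and ATP5B are below 0.

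Values of the subunits listed as central follow, and the difference between them and the remaining subunits was not tested. Among them COX4I1, COX5A and COX5B are nuclear-encoded subunits around a catalytic core that mitochondrial DNA encodes. ATP5B measured 956, 1074, 1006 and 989.9 TPM in HD and 846, 858, 545 and 618 TPM in VHD animals, a log2 difference of −0.52 (SE 0.16) that missed the threshold at an adjusted p of 0.0513. SDHA measured 185.5, 289.5, 257 and 286 TPM in HD and 197, 221, 152 and 179 TPM in VHD animals, and the groups overlapped (−0.43, SE 0.17, adjusted p = 0.102). COX4I1 had 0.52 (SE 0.17, adjusted p = 0.0559), with VHD 2 at 1857 TPM within the HD range of 1630 to 2005 TPM and the other VHD animals at 2806 TPM or more. UQCRC2 had −0.30 (SE 0.17), ATP5A1 −0.22 (SE 0.13), COX5B 0.30 (SE 0.13) and COX5A 0.20 (SE 0.12). CYC1 had −0.0023 with a 95% interval from −0.26 to 0.25, UQCRFS1 −0.037 with −0.32 to 0.25 and ATP5C1 0.053 with −0.25 to 0.36. COX4I2 had 0.00026 with an interval from −0.49 to 0.49, and COX7A2L 0.11 with −0.15 to 0.38. ATP5SL had −0.35 (SE 0.12, adjusted p = 0.0682) and ATP5S 0.12 (SE 0.23, adjusted p = 0.735).

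Relative to the median of all genes, −0.17, the members' median was 0.23. After TMM rescaling the medians were 0.0058 and 0.43. By complex the median was −0.057 for II, 0.27 for III, 0.52 for IV and 0.22 for V. Scores of complex IV averaged 0.34 ± 0.23 in VHD and −0.18 ± 0.059 in HD animals (SD, n = 4 each), a difference of 0.52, 0.35 in cohort 5 and 0.70 in cohort 7a. For complex III the difference was 0.20 (0.26 in cohort 5 and 0.15 in cohort 7a), and for complex V 0.20 (0.22 and 0.19). VHD and HD animals did not overlap in these 3 scores. In complex II they overlapped, the difference being −0.083 as deposited and 0.12 after TMM rescaling.

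High scores were not particular to VHD animals. Control 8 had a complex IV score of 0.53 and LD* 5 one of 0.42, both above the mean of the VHD animals. Of the 15 members higher in VHD than in HD animals, Control 8 was at or above the lowest VHD animal in 14 and LD* 5 in all 15. Complex V scores ran from −0.077 to −0.032 in HD animals, from 0.13 to 0.16 in VHD animals and from −0.18 to 0.19 in controls.

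Other gene groups moved with the same animals. All 8 general neuron markers were lower in VHD than in HD animals by log2 difference, 5 of them at an adjusted p under 0.05 (median −0.88). SNAP25, a presynaptic protein, averaged 831 ± 249 TPM in VHD and 1586 ± 260.3 TPM in HD animals (SD, n = 4 each). Of 10 medium spiny neuron markers 9 passed as lower (median −1.12), with PPP1R1B at 1828 ± 639 TPM in VHD and 3558 ± 281 TPM in HD animals. The neuron marker score ran from −0.89 to 0.041 in VHD and from 0.17 to 0.43 in HD animals. Of 7 astrocyte markers 2 passed as higher, of 7 microglia markers 3, and of 8 oligodendrocyte markers 1. All 4 endothelial markers were below 0 (median −0.33) and 0 passed, with a score of −0.21 in VHD and 0.11 in HD animals and no overlap. Of 84 cytosolic ribosomal protein genes 68 passed as higher (median 0.79), and of 37 genes named as complex I subunits 14 were higher and 1 lower. After TMM rescaling 4 of 8 neuron and 4 of 10 medium spiny neuron markers passed as lower, 47 of 84 ribosomal protein genes as higher, and 8 complex I genes as higher and 0 as lower. Over all genes 3.23% passed as higher and 11.4% as lower, and 8.60% and 10.4% after TMM rescaling. The part of these gene groups in the members' values was not tested. The model with the neuron marker score given above cannot decide it, since group and score can hardly be separated there.

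Over all 24 animals the complex IV score had a Pearson correlation of −0.91 with the neuron marker score (Spearman −0.80) and of 0.94 with the ribosomal protein score (Spearman 0.91). In the 16 controls and LD* animals alone the Pearson values were −0.86 and 0.92. The scores of complexes III and V had −0.73 and −0.80 with the neuron markers and −0.86 and −0.82 with the endothelial markers. Among single members ATP5L had −0.95 with the neuron marker score and ATP5B 0.90, and 31 of the 44 members had a value below 0. These values describe animals that share library and scaling and carry no test.

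**Figure D5:**
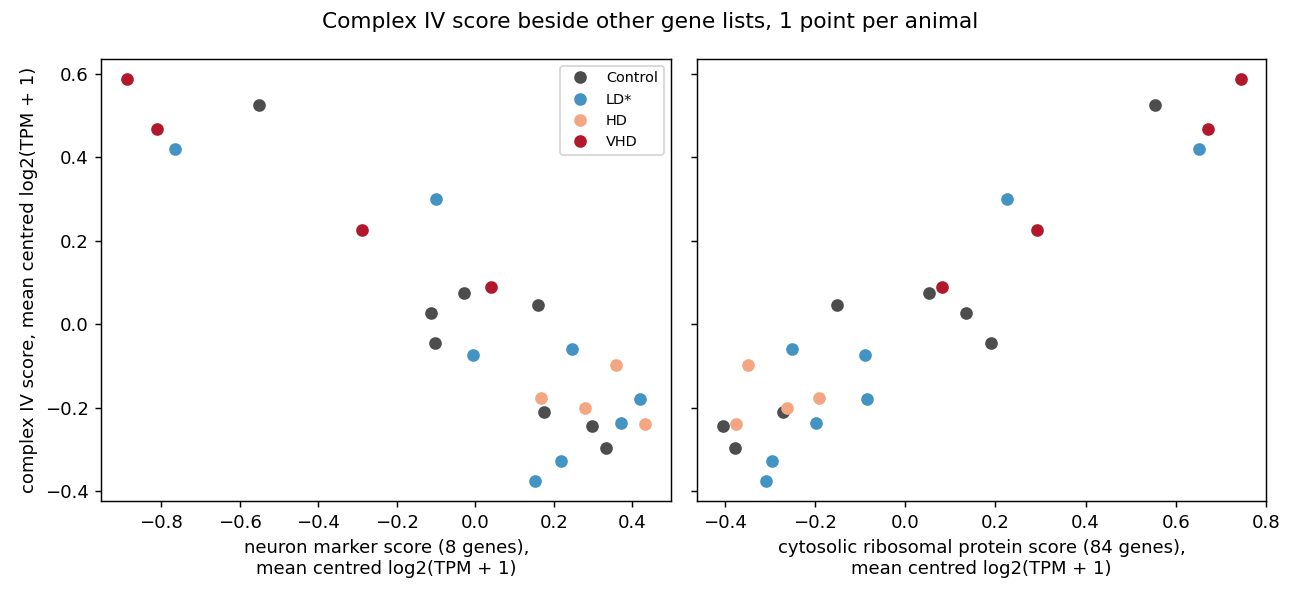
Complex IV score (y axis) against the score of 8 general neuron markers (left) and of 84 cytosolic ribosomal protein genes (right), all as mean centred log2(TPM + 1), 1 point for each of 24 animals coloured by group. Pearson correlations are −0.91 and 0.94, and Control 8 and LD* 5 lie beside VHD 3 and VHD 4.

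Intake in g/kg was then taken as a number in the 16 drinkers. At an adjusted p under 0.05, 0 members and 0 of all genes (0%) had a slope. Without adjustment, 907 genes (6.65%) and 5 members (11.4%) had a p under 0.05, the members all with positive slopes. With 1 drinker left out this count of members ran from 1 without LD* 2 (2.25% of all genes) to 13 without HD 2 (11.4% of all genes). The smallest p belonged to UQCRHL, with 0.21 log2 units per g/kg (SE 0.075), followed by COX5B with 0.15 (SE 0.060) and ATP5J2, subunit f of the membrane part of complex V, with 0.17 (SE 0.079), each at an adjusted p of 0.512. COX6C and COX7A1 were the other 2. Slopes were above 0 for 32 of 44 members (median 0.079), against a median of −0.068 over all genes, and for all 13 of complex IV (median 0.16). Since intake also sets LD* apart from HD* animals, scores were related to it within each group. The complex IV score had a Pearson correlation with intake of 0.51 in the 8 LD* and 0.53 in the 8 HD* animals, complex V 0.43 and 0.72, complex III 0.49 and 0.68, and complex II −0.65 and 0.0011. Within LD*, the lowest intakes (0.47 and 1.24 g/kg) were those of the 2 animals of cohort 4. The highest LD* intake (2.07 g/kg) was that of LD* 5, which also had a complex IV score of 0.42. The LD* values therefore cannot be told apart from cohort and from this animal. Within HD*, intake sets VHD (3.09 to 3.78 g/kg) apart from HD animals (2.74 to 3.09 g/kg). Scores of complexes III to V did not overlap between them, so the HD* values cannot be told apart from that contrast. Over all 16 drinkers, complexes II to V had −0.50, 0.46, 0.45 and 0.46. Without the 2 animals farthest from the median intake they had −0.49, 0.34, 0.37 and 0.35.

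Cohort, tested with group in the same model, gave 0 members and 0 of all genes (0%) at an adjusted p under 0.05. Without adjustment, a p under 0.05 was found for 1140 genes (8.36%) and 1 member, ATP5D. Its cohort estimates, with group in the model, spanned 0.27 on the log2 scale (adjusted p = 0.540). UQCRHL and ATP5G2 came next, at spans of 0.59 and 0.24 and the same adjusted p. The complex IV score averaged −0.28 in the 2 animals of cohort 4, −0.092 ± 0.19 in cohort 5 (n = 7), 0.0999 ± 0.37 in cohort 7a (n = 9) and 0.052 ± 0.20 in cohort 7b (SD, n = 6). A test of whether the difference between HD* animals and controls itself differed between cohorts 7a and 5 gave 0 members and 0 of all genes (0%). At an unadjusted p under 0.05 it gave 294 genes (2.16%) and 0 members, with the smallest p for SDHC (−0.44, SE 0.26, adjusted p = 1.00).

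Genes around the complexes were followed with lists of assembly factors, electron carriers and regulators of mitochondrial biogenesis. Between HD* animals and controls 0 genes of these lists had an unadjusted p under 0.05, among 3 assembly factors of complex II, 6 of III, 24 of IV, 4 of V with its inhibitor, 13 carriers and 12 regulators. After TMM rescaling 3 of the 24 complex IV factors were higher at that threshold and 0 genes of the other lists differed. Of all 13629 genes 263 were then higher. Between VHD and HD animals 4 of the 24 assembly factors of complex IV passed as higher, namely COX14, COX16, COX17 and COA4. COX17, the copper chaperone, averaged 259.8 ± 27.2 TPM in VHD and 193 ± 13.7 TPM in HD animals, and COX14 327 ± 32.0 and 206 ± 1.59 TPM (SD, n = 4 each). In complex III assembly MNF1 passed as higher (log2 difference 0.67, SE 0.17, adjusted p = 0.0236) and UQCC as lower (−0.51, SE 0.14, adjusted p = 0.0346). Of the 12 regulators PPRC1, a coactivator of mitochondrial gene expression, passed as lower (−0.74, SE 0.21, adjusted p = 0.0347), and 11 of 12 were below 0. Of complex II and V factors and carriers 0 passed. Over all 13637 genes 3.23% passed as higher and 11.4% as lower, and 8893 were below 0. After TMM rescaling 8 complex IV factors passed as higher and 1 as lower, and 1 complex III factor as higher and 0 as lower. Of 3 complex II factors 2 passed as higher, as did 2 of 13 carriers. Of the 12 regulators 1 passed as higher and 1 as lower, with 8 below 0. Over all 13629 genes 8.60% then passed as higher and 10.4% as lower, and 6741 were below 0.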

How the data were processed

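RNA-Seq of the NAcc core of 24 male rhesus macaques was used, 1 sample for each animal. The authors prepared polyA-selected libraries, aligned reads to the MacaM assembly with STAR (2.5.2b in the submitters' processing notes), kept uniquely aligned reads and counted them with HTSeq (0.6.1p1). The deposited values were taken as TPM made by the authors, although their name speaks of normalized counts. The step from counts to TPM and the gene lengths are not given in the sources used here, and the paper and the public record disagree on strand and on single or paired reads. Columns added up to between 999998 and 1000000, so depth is unknown and count models could not be fitted. Of the symbols, 27 had become dates. Groups, cohorts and intake came from the sample labels.

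Values were taken as log2(TPM + 1). Linear models of limma 3.58.1 (R 4.3.3), with moderated variances that follow a trend, were fitted to the 13637 genes averaging 1 TPM or more, and p-values were adjusted over all of them by Benjamini-Hochberg. The 3 group contrasts came from 1 model of 24 animals. Separate models were fitted for VHD against HD (8 animals), intake (16 drinkers), cohort (F test beside group) and the interaction of HD* with cohort. Fits were tested on simulated data. Plots were drawn with matplotlib 3.10.9. Members, lists and tests were chosen with earlier results of these data known. The division into subunits and other genes, and a narrower symbol pattern for ribosomal proteins, were written after the files were opened. Genes were named as the 3 members with the smallest p in each contrast, the 2 most abundant of each complex, the 12 central subunits, the tissue forms, matches that are not subunits and those most and least correlated with their complex. UQCRH and other members named beyond these were chosen after their values were seen.

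Alternatives were pseudocounts of 0.1 and 8, a filter at 10 TPM and none, TMM rescaling (own code, with 30% of M and 5% of A trimmed), array weights, cohort or marker scores as covariates, a model of 4 groups, other forms of the scores, and each animal left out in turn. The neuron and oligodendrocyte marker scores as covariates for VHD against HD and the within-cohort differences between VHD and HD scores were added after seeing the data. Sequences, genome positions and mitochondrially encoded genes were not analysed here.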

Additional observations from a re-analysis of the deposited data

Results flagged for a closer look

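In each group of 4 or 8 animals the highest and the lowest animal were compared with the remaining ones by Dixon's criterion, for 44 members and 4 complex scores. Of 192 cases, 18 passed (9.38%), where chance alone passes about 1 in 20 of independent cases. These cases share animals, and many of the genes vary together, so this share cannot be set against chance. Control 8 accounted for 9 of the 18. It had 1729 TPM of ATP5E (the other controls 884 to 1268), 580 TPM of ATP5L (357 to 459.9), 604 TPM of COX5A (445 to 508), 3092 TPM of COX6A1 (1273 to 2045), 252 TPM of COX7A1 (77.7 to 148), 1292 TPM of COX7A2 (452 to 748.5), 2133 TPM of COX7B (893 to 1430) and 497 TPM of UQCR11 (241 to 338.5), and its complex IV score of 0.53 stood against −0.30 to 0.074 in the other controls. LD* 5 accounted for 3, with 1906 TPM of ATP5E (the other LD* animals 945 to 1378), 1440 TPM of COX6C (815 to 1062) and 2605 TPM of COX7B (919.5 to 1631). Beside these, Control 8 and LD* 5 had neuron marker scores of −0.55 and −0.77, the lowest of their groups, and the part of this was not tested.

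The other 6 were in groups of 4. HD 1 was low in UQCRFS1 (144 TPM, the others 161 to 164) and HD 2 in UQCRH (422 TPM, the others 472 to 478). VHD 2 was low in COX4I1 (1857 TPM, the others 2806 to 2913) and COX4I2 (4.38 TPM, the others 6.68 to 7.00). VHD 4 was high in ATP5I, a subunit of complex V (1677 TPM, the others 1130 to 1203), and low in CYC1 (490.2 TPM, the others 543 to 551).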

How the results depend on the processing

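For every comparison except VHD against HD, 0 members passed in every alternative run. For VHD against HD 15 members passed (14.6% of all genes) and 31 with array weights (55.8%). In the model of 4 groups 0 passed (0%), as did 0 with the neuron marker score as a covariate (0.0147%). With 1 animal left out 4 to 23 passed (3.49% to 34.1% of all genes). In the alternatives not named here the count stayed between 10 and 19. COX8A changed sign with the neuron marker score as a covariate (−0.0036). The model of 4 groups leaves each difference as it was and changes the spread, and the covariate changes the differences. The cause was not tested. After TMM rescaling the VHD minus HD differences in score were 0.12 for complex II, 0.41 for III, 0.72 for IV and 0.41 for V. With genes at unit variance they were 0.14 for III and 0.16 for V, and with all genes the pattern matches 0.17 for V. Within cohort 5 they were 0.26 for III and 0.35 for IV, and within cohort 7a 0.15 and 0.70. HD* minus control scores after TMM rescaling were 0.024 for II, 0.22 for III and 0.21 for V over all cohorts, and −0.078 for II, 0.20 for III and 0.16 for V in cohort 7a. With 1 animal left out, the cohort 7a differences ran from −0.096 to 0.21 for III, −0.35 to 0.39 for IV and −0.13 to 0.17 for V. Correlations of complex scores after TMM rescaling were 0.80 (II and III), 0.81 (II and IV), 0.82 (II and V), 0.97 (III and IV), 0.996 (III and V) and 0.975 (IV and V). Intake gave 5 members at an unadjusted p under 0.05, and 12 with cohort as a covariate, where 29.4% of all genes had one. With all 24 animals the count was 1 (8.27% of all genes). With 1 drinker left out it ran from 1 without LD* 2 (2.25%) to 13 without HD 2 (11.4%). No paired analysis was possible because the replicate numbers follow accession order and the labels name no pairs. Depth is unknown, so no limit from counting can be given.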
